A study of Caenorhabditis elegans with 48 samples.

Results

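The sarcomere and muscle attachment genes form a fixed list of 38 Caenorhabditis elegans genes, matched by symbol to the gene identifiers of the deposited tables. Counts were analysed for 37 of the 38, all of which passed the low-count filter in every fit, and unc-52 was not analysed here. The list was chosen by gene name and not by a measured value. It holds 5 pharyngeal genes, 3 thick filament genes of body wall muscle, 3 myosin light chains, 11 thin filament genes, 3 giant proteins, a myosin chaperone, a calcium release channel and 10 attachment genes. Body wall and pharyngeal muscle both use the light chains. The thin filament genes lev-11, unc-60, cpn-3, tnt-2 and tnt-3 are not confined to body wall muscle. Together they took 0.782% to 1.19% of the mRNA counts of a library and 0.905% to 1.24% of its footprint counts.

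In a muscle cell, thick filaments of myosin slide along thin filaments of actin when calcium, sensed by troponin on the thin filament, lets myosin bind. Worms build this machinery in body wall muscle, which moves the animal, and in the pharynx, the pumping organ through which it feeds, and the pharynx uses its own myosin heavy chains and some troponin subunits. In body wall muscle the filaments are tied to the cell membrane at dense bodies and M-lines, where integrins and their partners fix the contractile lattice to the matrix beneath the cuticle. Giant elastic proteins and a dedicated myosin chaperone keep the lattice in order.

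The study measured mRNA (polyA RNA) and ribosome footprints (RNA stretches protected by translating ribosomes) in worms labelled young adult, with 48 libraries in all. In the starvation experiment, Starved worms were set against Fed worms, with 6 libraries per group and assay. In the knockdown experiment, E02H1.1 and C27F2.4 knockdown worms were set against Empty_vector worms, with 4 libraries per group and assay. E02H1.1 and C27F2.4 are homologues of the 18S ribosomal RNA methyltransferases DIMT1 and BUD23. The strain, the length of starvation and any other feature that all groups share were not given in the sources used here. Because RNA came from whole worms, fewer cells of a type and less RNA per cell cannot be told apart.

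Libraries held 19238095 to 22837203 mRNA counts and 3905609 to 11746420 footprint counts, so footprint values rest on fewer reads. Levels are in CPM, counts scaled to a common library total, with the TMM correction for differences in library make-up, and fold changes are given as log2 ± SE. Each knockdown lowered its target. E02H1.1 mRNA averaged 19.1 ± 1.61 CPM in E02H1.1 worms and 67.8 ± 5.42 CPM in Empty_vector worms, and C27F2.4 mRNA averaged 31.4 ± 1.93 CPM in C27F2.4 worms and 62.1 ± 4.55 CPM in Empty_vector worms (SD, n = 4 each). The mRNAs of the 6 yolk protein genes vit-1 to vit-6, which adult hermaphrodites make in quantity, summed to only 1.44 to 4.18 CPM in the libraries, so this adult marker was near 0 in worms labelled young adult.

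Some libraries stood apart in these genes. Among Starved worms, the sum of the 37 mRNAs was highest in libraries 1 and 5, at 12098 and 11728 CPM, though not every gene was. Library 6 lay among the Fed libraries for several genes. Among the knockdown libraries, C27F2.4 A was high in pharyngeal footprints, with a sum over the 5 genes of 432 CPM against 272 to 286 CPM in the other C27F2.4 libraries. E02H1.1 C was low in the same sum, at 206 CPM against 282 to 302 CPM in the other E02H1.1 libraries. Empty_vector C was low in muscle mRNA, with 7760 CPM over the 37 genes against 8902 to 9117 CPM in the other Empty_vector libraries. Counts of called members are given with and without these libraries, and where the call of a member named with its values was lost without one of them, that is said beside it. Shares of all genes called belong to the fit with all libraries, unless counts over all genes are given for another fit. Counts of members from the other fits show how calls depend on libraries, and were not set against all genes. Library C had the lowest sum over the 37 genes in every knockdown group. In mRNA the sum was 10296 CPM in E02H1.1 C, 9293 CPM in C27F2.4 C and 7760 CPM in Empty_vector C. In footprints it was 10409, 9675 and 9227 CPM in the same order. The main fits held no term for the letter, and member counts with such a term are given at the end for several comparisons.

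Across all libraries, the members differed in how many footprints they carried per mRNA count. For each library the footprint to mRNA ratio of a gene was set against that of the median gene, a ratio in which the length of the gene largely cancels, apart from untranslated parts. The body wall myosin heavy chains unc-54 and myo-3 stood high, with median ratios of 2.02 and 1.92 times the median gene over 24 libraries. The calponin gene cpn-3, at 1.8 times, and pat-4, the integrin-linked kinase of attachment sites, at 1.76 times, were also high. The pharyngeal myosin heavy chains were below the median gene, with myo-1 at 0.669 times, myo-2 at 0.549 times and myo-5 at 0.486 times. The ratios of unc-54 and myo-3 both exceeded those of myo-1 and myo-2 in 24 of 24 libraries, by a difference of log2 means of 1.27 to 2.05.

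Among the remaining members, the giant proteins unc-22 (twitchin), unc-89 (obscurin) and ttn-1 (a titin-like protein) had ratios of 0.509, 0.492 and 0.511 times the median gene. The regulatory light chains mlc-1 and mlc-2 were the lowest, at 0.372 and 0.395 times. These 2 genes are nearly identical, and how reads that match both were counted was not given in the sources used here. Of the attachment genes, 7 had a median ratio above that of the median gene and unc-97, deb-1 and atn-1 had one below it. The ryanodine receptor unc-68, which releases calcium from internal stores, had a median ratio of 0.742 times the median gene in the starvation libraries and 0.464 times in the knockdown libraries. The LIM protein gene unc-97, the worm PINCH, had 0.993 and 0.655 times in the same 2 experiments, which were not compared by a test.

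**Figure D1:**
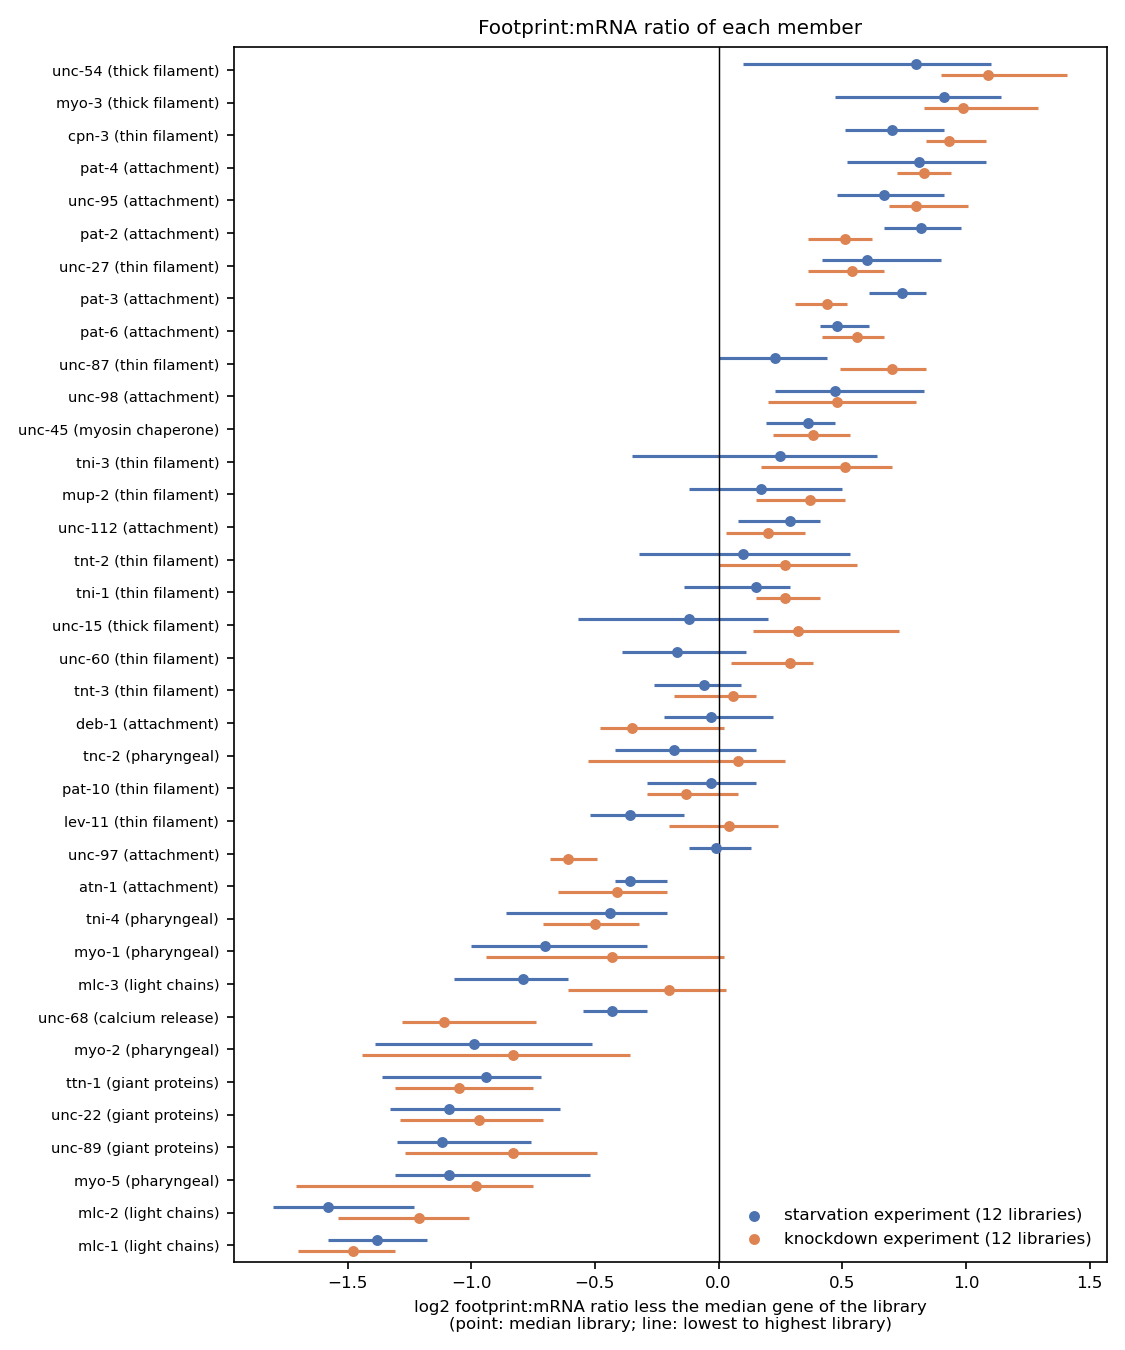
Footprint to mRNA ratio of each of the 37 genes relative to the median gene of the same library (log2 scale, x axis), with a point at the median library and a line from the lowest to the highest library, drawn separately for the 12 libraries of the starvation experiment and the 12 of the knockdown experiment, and genes ordered by the ratio. The lines of unc-54 and myo-3 lie above 0, those of myo-2, myo-5, mlc-1, mlc-2 and the 3 giant proteins below 0.

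In Starved worms, mRNAs of the contractile lattice were higher than in Fed worms while those of attachment sites were not. Of the 27 sarcomere members, which are all but the attachment genes, 20 rose and none fell (edgeR quasi-likelihood test, adjusted p under 0.05 over all genes tested), and of the 10 attachment members none rose and 1 fell. The median log2 difference was 0.23 in the sarcomere members, 0.04 in the attachment members and 0.00 over all genes tested. In the whole mRNA table, 11.8% of genes were called higher and 10.2% lower, against 20 and 1 of the 37 members. With scaling by library totals, 1216 genes were called higher and 2012 lower in place of 1564 and 1351, and 18 members were higher and 2 lower. Without Starved 1 and 5, 14 members were higher and none lower, and without Starved 6, 24 were higher and 1 lower.

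All 3 thick filament mRNAs rose. The mRNA of unc-54 (WBGene00006789), the major myosin heavy chain of body wall muscle, ran from 660 to 1011 CPM with a median of 833 in Starved worms, and from 623 to 686 CPM with a median of 671 in Fed worms. Starved 6 gave the 660 CPM and overlapped the Fed libraries. The log2 difference was 0.34 ± 0.09 (adjusted p = 0.0181). The mRNA of myo-3 (WBGene00003515), the heavy chain at the centre of the same filaments, averaged 578 ± 69 CPM in Starved worms and 477 ± 14.8 CPM in Fed worms (SD, n = 6 each), a log2 difference of 0.28 ± 0.06 (adjusted p = 0.00408). That of unc-15 (WBGene00006754), the paramyosin of the filament core, averaged 624 ± 95.9 CPM in Starved worms and 507 ± 9.09 CPM in Fed worms (log2 difference 0.30 ± 0.09, adjusted p = 0.0313). The unc-15 call was lost on leaving out Starved 5 or any single Fed library.

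Thin filament mRNAs rose in 10 of 11 cases, light chains in 3 of 3 and giant proteins in 1 of 3. The largest called rise was that of tnt-2, a troponin T gene, with 24.7 ± 4.76 CPM in Starved worms and 18.5 ± 1.89 CPM in Fed worms (log2 difference 0.42 ± 0.10, adjusted p = 0.00483). The troponin I genes tni-3 and unc-27 rose by 0.36 ± 0.09 and 0.30 ± 0.06 on the log2 scale (adjusted p = 0.00526 and 0.000502). The tni-3 call was lost without Starved 1 and 5, where the difference was 0.24 (adjusted p = 0.063), and with thinned counts. The mRNA of unc-60, an actin-severing cofilin whose counts here sum muscle and non-muscle forms, averaged 158 ± 14.6 CPM in Starved worms and 129 ± 7.96 CPM in Fed worms (log2 difference 0.29 ± 0.05, adjusted p = 0.000209). For unc-27 and unc-60 every Starved library lay above every Fed library.

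Pharyngeal mRNAs were more scattered among Starved worms. Of the 5, tni-4, the pharyngeal troponin I, rose (log2 difference 0.19 ± 0.05, adjusted p = 0.0121). The mRNA of myo-2 ran from 139 to 260 CPM with a median of 203 in Starved worms and from 149 to 171 CPM with a median of 157 in Fed worms. Its log2 difference of 0.38 ± 0.13 did not pass (adjusted p = 0.0668), nor did that of myo-1, at 0.33 ± 0.13 (adjusted p = 0.098). Each of these 2 genes passed in 2 alternative fits, DESeq2 among them. Both groups of values overlapped, and without Starved 6 the count of pharyngeal genes that rose was 4 of 5, while without Starved 1 and 5 it was 0 of 5. The single fall was in pat-3, the beta integrin of attachment sites, with 515 ± 19.9 CPM in Starved worms and 560 ± 16.1 CPM in Fed worms (log2 difference -0.12 ± 0.03, adjusted p = 0.0131). Without Starved 1 and 5 that fall did not pass (-0.09, adjusted p = 0.107).

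The footprints of Starved worms gave another picture for the thick filament. Footprints of unc-54 ran from 962 to 1159 CPM with a median of 1058 in Starved worms, and from 1160 to 1367 CPM with a median of 1220 in Fed worms. Every Starved library lay below every Fed library, and the log2 difference was -0.24 ± 0.05 (adjusted p = 0.000211), opposite in sign to that of the mRNA. Footprints of myo-3, with 896 ± 71.7 CPM in Starved worms and 938 ± 46.8 CPM in Fed worms, and of unc-15, with 492 ± 30.5 CPM in Starved worms and 487 ± 30.8 CPM in Fed worms, did not pass the test (SD, n = 6 each; log2 differences -0.07 ± 0.05 and 0.02 ± 0.05, adjusted p = 0.328 and 0.844). Of all genes tested in footprints, 13.9% were called higher and 14.7% lower, against 17 and 1 of the 37 members. The 1 member called lower was unc-54.

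The footprint rises fell in other groups: 5 of 11 thin filament genes, 2 of 3 light chains, 2 of 5 pharyngeal genes, 6 of 10 attachment genes, ttn-1 of the giant proteins and the myosin chaperone gene unc-45. Footprints of tni-4 averaged 76.3 ± 8.04 CPM in Starved worms and 57.7 ± 7.96 CPM in Fed worms (log2 difference 0.41 ± 0.08, adjusted p = 0.0003). Those of mlc-1 ran from 150 to 173 CPM with a median of 163 in Starved worms and from 120 to 139 CPM with a median of 131 in Fed worms, with no overlap (log2 difference 0.34 ± 0.05, adjusted p = 1.99e-06). Those of its near copy mlc-2 averaged 105 ± 10.6 CPM in Starved worms and 106 ± 10.5 CPM in Fed worms, and the split of reads between the pair is uncertain.

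Further footprint rises were those of tnt-2, myo-5 and ttn-1, by 0.37 ± 0.12, 0.32 ± 0.10 and 0.30 ± 0.07 on the log2 scale (adjusted p = 0.0286, 0.0247 and 0.00197). The tnt-2 call was lost in 5 of the 12 fits that left out a library and under the replicate block, and without Starved 1 and 5 its difference was 0.21 (adjusted p = 0.258). The myo-5 call was lost without Starved 1, without Starved 6, with thinned counts, and without Starved 1 and 5 together, where its difference was 0.20 (adjusted p = 0.122). Among attachment genes, the zinc finger gene unc-98 had 40.4 ± 2.5 CPM in Starved worms and 33.9 ± 3.49 CPM in Fed worms (log2 difference 0.25 ± 0.07, adjusted p = 0.00891). The focal adhesion gene unc-95 and deb-1, the vinculin of dense bodies, rose by 0.22 ± 0.05 and 0.20 ± 0.05 (adjusted p = 0.00199 and 0.000694). The myosins myo-1 and myo-2 did not pass, with log2 differences of 0.09 ± 0.08 and 0.13 ± 0.07 (adjusted p = 0.48 and 0.14). Without Starved 1 and 5, 11 members were higher and 1 lower in footprints, and the same counts were found without Starved 6. The unc-45 call was lost in 7 of the 12 fits that left out a library, those without Starved 5 and 6 among them.

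Translational efficiency, the footprint level relative to the mRNA level, was lower in Starved worms for both body wall myosin heavy chains. The log2 ratio of unc-54 ran from 0.04 to 0.76 with a median of 0.32 in Starved worms, and from 0.76 to 1.05 with a median of 0.90 in Fed worms. That of myo-3 ran from 0.41 to 0.88 with a median of 0.62 in Starved worms, and from 0.86 to 1.09 with a median of 0.98 in Fed worms. For both genes the groups met or overlapped through Starved 6. The interaction of assay and group gave -0.58 ± 0.10 for unc-54 and -0.34 ± 0.08 for myo-3 on the log2 scale (adjusted p = 0.000682 and 0.00665).

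These 2 genes were the only members called in translational efficiency in that fit, with 0 higher and 2 lower, against 2.54% of all genes called higher and 3.75% lower. Both calls held on leaving out each library in turn. Without Starved 1 and 5 the members' counts were 1 higher and 2 lower, and without Starved 6 they were 0 higher and 3 lower. With scaling by library totals 539 genes were called higher and 278 lower in place of 269 and 396, and the members' counts were 2 higher and 2 lower. With the mRNA and footprint libraries of the same name treated as 1 culture, 523 of 10572 genes were higher and 622 lower. The members' counts were then 2 higher and 4 lower. That fit gave -0.57 ± 0.09 for unc-54 and -0.34 ± 0.06 for myo-3, and it added falls of mlc-2 and pat-10 and rises of mlc-1 and tni-4. The third thick filament gene, unc-15, had -0.28 ± 0.10 in the fit without cultures (adjusted p = 0.0858). For the pharyngeal myosins myo-1 and myo-2 the value was -0.24 ± 0.18 and -0.24 ± 0.17 (adjusted p = 0.486 and 0.452).

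**Figure D2:**
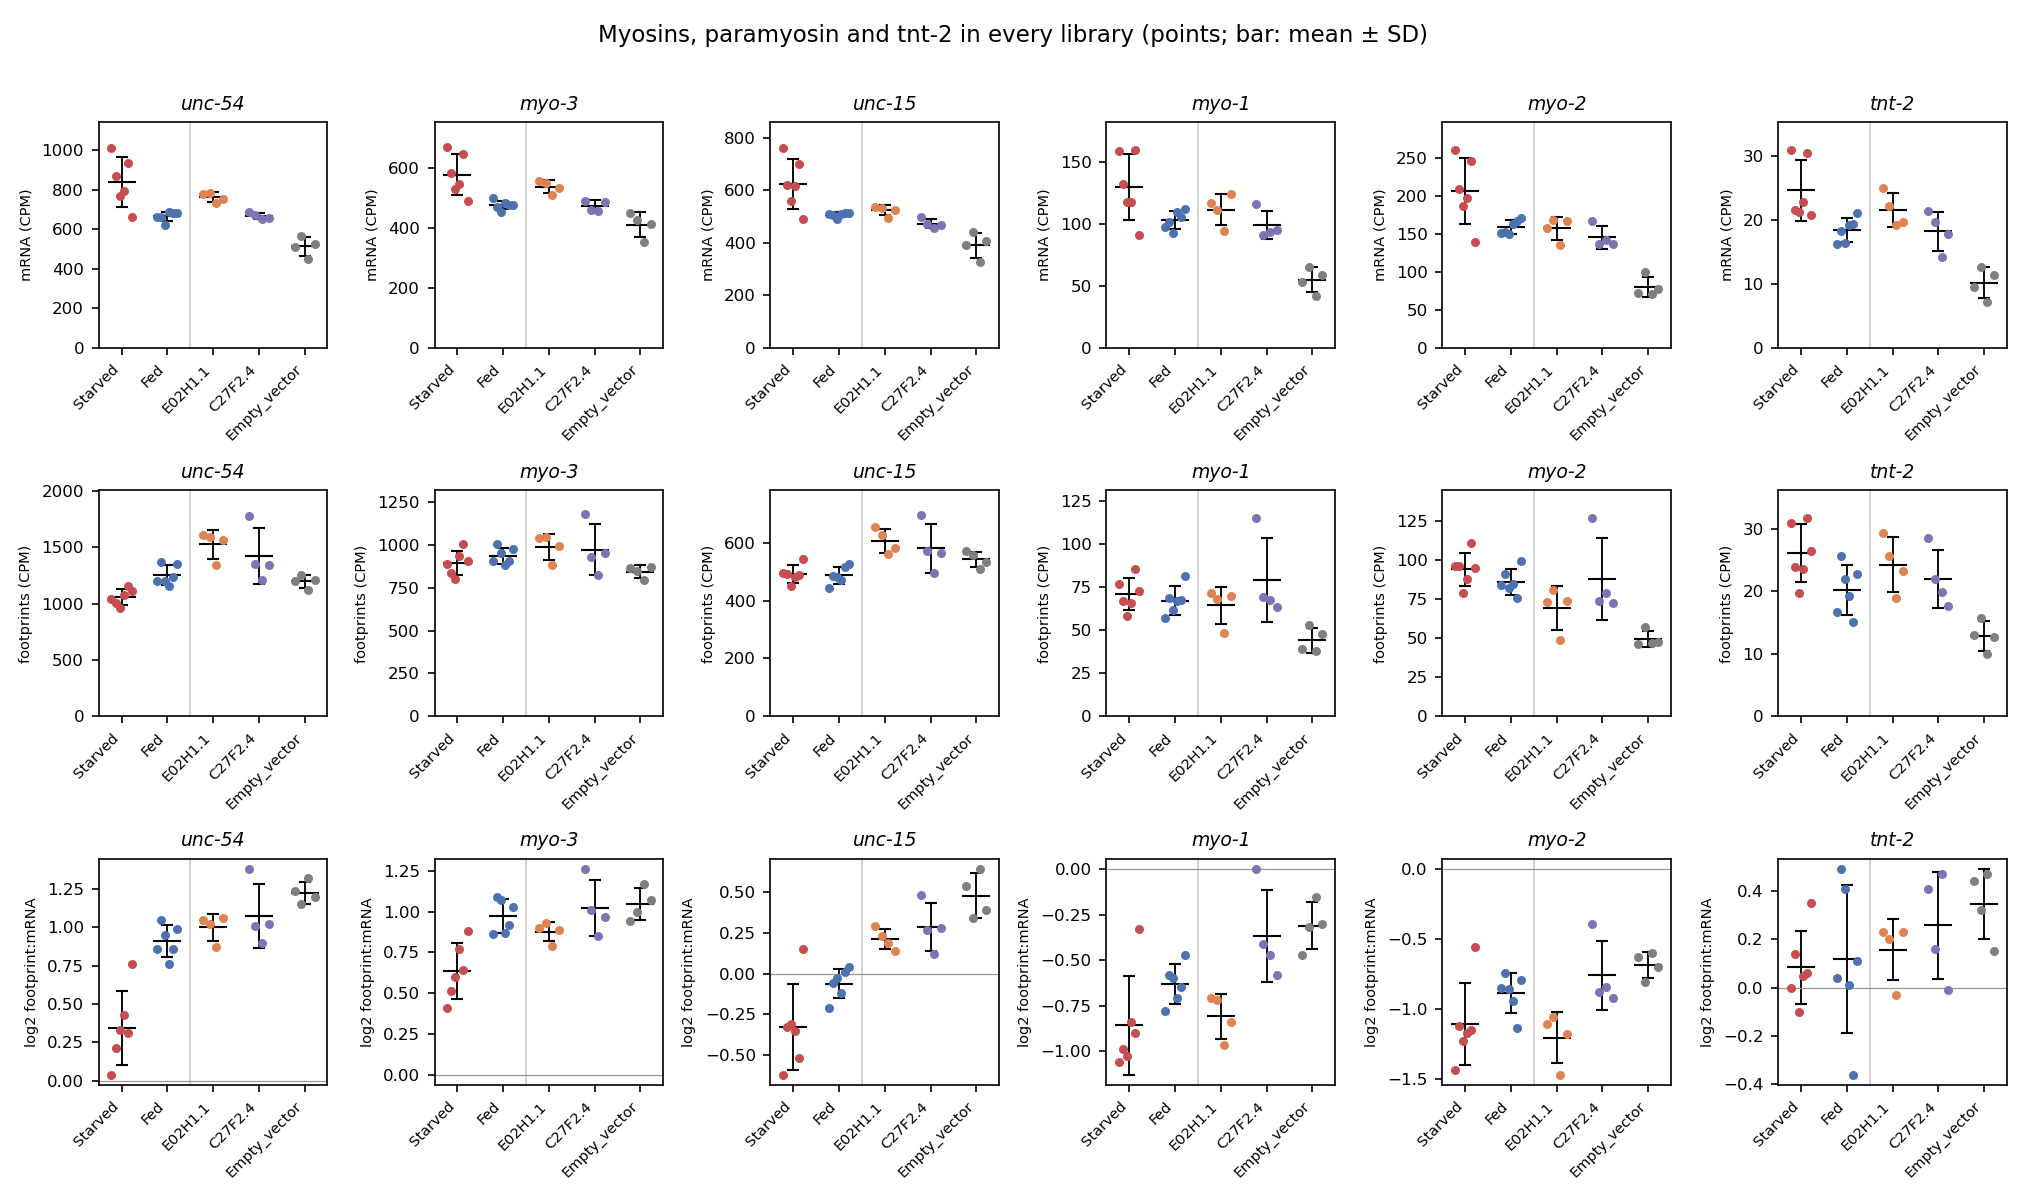
Levels of unc-54, myo-3, unc-15, myo-1, myo-2 and tnt-2 in each library in mRNA (CPM, top row) and footprints (CPM, middle row), and their log2 footprint to mRNA ratio (bottom row), with a point per library and bars for the group mean ± SD, groups in the order Starved, Fed, E02H1.1, C27F2.4, Empty_vector. For unc-54 the Starved points lie at 660 to 1011 CPM in mRNA and 962 to 1159 CPM in footprints, against 623 to 686 and 1160 to 1367 CPM in Fed worms.

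Knockdown of E02H1.1 raised mRNA of the contractile lattice, pharyngeal genes included. Of the 27 sarcomere members 22 rose and none fell, and of the 10 attachment members 2 rose, namely deb-1 and atn-1, the alpha-actinin of dense bodies (log2 differences 0.28 ± 0.05 and 0.33 ± 0.06, adjusted p = 0.000182 and 5.39e-05). The medians were 0.42 in sarcomere members, 0.06 in attachment members and -0.01 over all genes tested. Of all genes tested, 19.9% were called higher and 19.6% lower, against 24 and 0 of the 37 members. Leaving out each library in turn gave 23 to 26 called members, and 23 of the 24 calls held throughout.

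All 5 pharyngeal mRNAs rose in E02H1.1 worms. The mRNA of myo-1 (WBGene00002348) stood at 117, 111, 94.5 and 124 CPM in E02H1.1 worms, against 53.5, 65.7, 41.7 and 58.5 CPM in Empty_vector worms. That of myo-2 (WBGene00003514) stood at 157, 168, 135 and 167 CPM in E02H1.1 worms, against 71.7, 100, 70.9 and 77.4 CPM in Empty_vector worms. Neither gene's groups overlapped, and the log2 differences were 1.03 ± 0.14 and 0.97 ± 0.12 (adjusted p = 0.000239 and 0.000113). The other pharyngeal heavy chain, myo-5, rose by 0.74 ± 0.12, the pharyngeal troponin C gene tnc-2 by 0.73 ± 0.09 and tni-4 by 0.46 ± 0.10 (adjusted p = 0.000801, 5.29e-07 and 0.00352).

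In body wall muscle, unc-54 mRNA stood at 779, 784, 732 and 752 CPM in E02H1.1 worms, against 509, 566, 451 and 527 CPM in Empty_vector worms. The groups did not overlap, and the log2 difference was 0.57 ± 0.05 (adjusted p = 4.5e-09). The mRNAs of myo-3 and unc-15 rose by 0.39 ± 0.05 and 0.42 ± 0.06 (adjusted p = 8.21e-06 and 3.55e-05). The rise of tnt-2, which is not confined to body wall muscle, was the largest of the 37 (log2 difference 1.08 ± 0.14, adjusted p = 6.19e-06). Its mRNA stood at 25, 22.3, 19.3 and 19.8 CPM in E02H1.1 worms, against 9.61, 12.7, 7.21 and 11.4 CPM in Empty_vector worms. Twitchin, unc-22, averaged 163 ± 16.2 CPM in E02H1.1 worms and 95.8 ± 14.6 CPM in Empty_vector worms (SD, n = 4 each; log2 difference 0.76 ± 0.12, adjusted p = 0.000456). Light chains, which both muscles use, rose in 3 of 3 cases, thin filament genes in 7 of 11 and giant proteins in 2 of 3.

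In footprints, 13 members were higher and none lower in E02H1.1 worms, against 10.7% of all genes called higher and 9.24% lower. Thin filament genes made up 8 of the 13. Footprints of tnt-2 stood at 29.3, 25.7, 18.9 and 23.3 CPM in E02H1.1 worms, against 13, 15.8, 10 and 12.7 CPM in Empty_vector worms (log2 difference 0.93 ± 0.16, adjusted p = 0.00055). Those of unc-22 rose by 0.73 ± 0.22, of tni-3 by 0.64 ± 0.16, of unc-87, a calponin-like protein that bundles actin, by 0.52 ± 0.13, and of unc-27 by 0.52 ± 0.08 (adjusted p = 0.0369, 0.00705, 0.0166 and 0.000145). The rise of unc-22 was lost in 5 of the 12 fits that left out a library, with thinned counts and under the replicate block. That of unc-87 was lost without Empty_vector C, where it was 0.45, and without E02H1.1 A, where it was 0.46 (adjusted p = 0.0742 and 0.0511).

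Of the thick filament genes unc-54 passed, with footprints of 1614, 1591, 1340 and 1564 CPM in E02H1.1 worms, against 1205, 1259, 1123 and 1211 CPM in Empty_vector worms. The groups did not overlap (log2 difference 0.35 ± 0.10, adjusted p = 0.0209), and the call was lost without Empty_vector A or C or without E02H1.1 A, B or D. Footprints of myo-3 and unc-15 gave 0.23 ± 0.08 and 0.16 ± 0.08 (adjusted p = 0.0564 and 0.154).

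Of the pharyngeal genes, footprints of tni-4 rose (log2 difference 0.44 ± 0.09, adjusted p = 0.00195). Footprints of myo-1 stood at 71.5, 67.7, 48.2 and 69.5 CPM in E02H1.1 worms, against 38.7, 52.6, 37.6 and 47.6 CPM in Empty_vector worms. The groups overlapped through E02H1.1 C and the log2 difference of 0.56 ± 0.23 did not pass (adjusted p = 0.107). That of myo-2 was 0.50 ± 0.22 and that of myo-5 0.19 ± 0.19 (adjusted p = 0.134 and 0.529). The spread in these fits is shared with the C27F2.4 libraries. Without C27F2.4 A, 20 members and 4 of the 5 pharyngeal genes were higher, without E02H1.1 C 19 members, without Empty_vector C 9 and without E02H1.1 A 7. The share of all genes called in each of these fits is not given here, so the counts do not speak of muscle genes alone.

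Translational efficiency was called lower for 2 of the 37 members and higher for 0 in E02H1.1 worms. Of all genes, 5.24% were called lower and 5.59% higher. In this fit, which held no term for cultures, the count of lower members lay near the share of all genes. The log2 ratio of tnc-2 was -0.37 ± 0.17 in E02H1.1 worms and 0.11 ± 0.12 in Empty_vector worms (SD, n = 4 each; difference -0.46 ± 0.15, adjusted p = 0.0414). That of deb-1 was -0.43 ± 0.05 in E02H1.1 worms and -0.11 ± 0.03 in Empty_vector worms (difference -0.31 ± 0.09, adjusted p = 0.0167). The deb-1 call was lost without E02H1.1 B, where no member was called, and the tnc-2 call in 6 of the 12 fits that left out a library. Without C27F2.4 A, 1 member was higher and 4 were lower.

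With libraries of the same name treated as 1 culture, 1245 genes were called higher and 982 lower in translational efficiency in E02H1.1 worms, and the members' counts were 2 higher and 12 lower. The 12 included myo-1, myo-2, myo-5 and tnc-2 of the pharynx, at -0.49 ± 0.11, -0.49 ± 0.12, -0.57 ± 0.11 and -0.47 ± 0.12 (adjusted p = 0.00238, 0.00926, 0.000816 and 0.00275), and also unc-54 and unc-15, at -0.23 ± 0.08 and -0.27 ± 0.07. The troponin genes pat-10 and unc-27 were higher in that fit, at 0.20 ± 0.05 and 0.24 ± 0.07. Without the culture term myo-1, myo-2 and myo-5 gave -0.46 ± 0.27, -0.47 ± 0.25 and -0.56 ± 0.24 (adjusted p = 0.302, 0.26 and 0.148), and unc-54, myo-3 and unc-15 gave -0.22 ± 0.12, -0.16 ± 0.11 and -0.26 ± 0.11 (adjusted p = 0.255, 0.405 and 0.158).

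Knockdown of C27F2.4, tested against the same Empty_vector libraries, raised 17 member mRNAs and lowered none, against 8.11% of all genes called higher and 5.56% lower. Because the controls are shared, the 2 knockdowns' values are given side by side and not as repeats of each other. Sarcomere members rose in 16 of 27 cases (median 0.27) and attachment members in 1 of 10 (median 0.05), deb-1 being the 1, whose call was lost without C27F2.4 A, C27F2.4 B or Empty_vector C. All genes tested had a median of 0.00. Without C27F2.4 A the count was 14 higher and 0 lower, and without Empty_vector C it was 15 higher and 1 lower.

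Pharyngeal mRNAs rose in 4 of 5 cases in C27F2.4 worms. The mRNA of myo-1 stood at 116, 91.4, 93.8 and 94.9 CPM in C27F2.4 worms and that of myo-2 at 167, 136, 141 and 136 CPM, all above the Empty_vector values already given. The log2 differences were 0.85 ± 0.14 and 0.86 ± 0.12 (adjusted p = 0.00281 and 0.001). The mRNAs of myo-5 and tnc-2 rose by 0.57 ± 0.12 and 0.52 ± 0.09 (adjusted p = 0.0121 and 0.000287), while tni-4, at 0.31 ± 0.11, did not pass (adjusted p = 0.0657). The myo-5 call was lost without Empty_vector C, and the tnc-2 call with thinned counts (adjusted p = 0.101).

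Thick filament mRNAs rose in 3 of 3 cases in C27F2.4 worms, by 0.38 ± 0.05 for unc-54, 0.21 ± 0.05 for myo-3 and 0.27 ± 0.06 for unc-15 (adjusted p = 1.03e-05, 0.012 and 0.00537). The mRNA of unc-54 stood at 686, 672, 650 and 659 CPM, above all Empty_vector libraries. The mRNA of tnt-2 averaged 18.3 ± 3.03 CPM in C27F2.4 worms and 10.2 ± 2.38 CPM in Empty_vector worms, and that of unc-22 144 ± 16 CPM in C27F2.4 worms and 95.8 ± 14.6 CPM in Empty_vector worms (SD, n = 4 each; log2 differences 0.84 ± 0.15 and 0.58 ± 0.12, adjusted p = 0.000472 and 0.00756). Light chains rose in 3 of 3 cases, giant proteins in 2 of 3 and thin filament genes in 4 of 11.

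Footprints rose for 6 members and fell for 0 in C27F2.4 worms, against 4.96% of all genes called higher and 2.11% lower. The 6 were myo-1, myo-2, tnc-2 and tni-4 of the pharynx and the thin filament genes tnt-2 and unc-27. Footprints of myo-1 stood at 115, 68.9, 67.6 and 63.3 CPM and those of myo-2 at 127, 73.8, 78.8 and 72.2 CPM in C27F2.4 worms, against 38.7, 52.6, 37.6 and 47.6 CPM and 46.2, 57.1, 46.7 and 47.6 CPM in Empty_vector worms. C27F2.4 A was by far the highest library, and the other 3 also lay above all Empty_vector libraries. The log2 differences were 0.84 ± 0.21 and 0.83 ± 0.20 (adjusted p = 0.0396 and 0.0356).

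Both myosin calls held without C27F2.4 A, and each was lost on leaving out any of several other libraries, Empty_vector A, C and D among them. Both were also lost with thinned counts. Footprints of tnt-2, tnc-2, tni-4 and unc-27 rose by 0.77 ± 0.15, 0.47 ± 0.10, 0.41 ± 0.09 and 0.33 ± 0.08 (adjusted p = 0.00457, 0.00795, 0.00617 and 0.0125). Without C27F2.4 A the count was also 6, with 4 of 5 pharyngeal genes, and the pharyngeal median was 0.37 against 0.54 with it. Without Empty_vector C the count was 3, since the calls of myo-1, myo-2 and unc-27 were lost, the last at 0.28 (adjusted p = 0.06). No thick filament gene passed in footprints, with 0.24 ± 0.10 for unc-54, 0.20 ± 0.08 for myo-3 and 0.10 ± 0.08 for unc-15 (adjusted p = 0.156, 0.153 and 0.51).

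No member was called in translational efficiency in C27F2.4 worms by edgeR or by DESeq2, and 1 had an unadjusted p under 0.05. Of all genes tested, 0.364% were called higher and 0.513% lower. The ratio differences of myo-1, myo-2 and unc-54 were -0.01 ± 0.26, -0.03 ± 0.24 and -0.13 ± 0.12 (adjusted p = 0.994, 0.98 and 0.687). Without C27F2.4 A, deb-1 was the 1 member called, and it was lower. With cultures as a term, 322 of 10714 genes were called higher and 340 lower, and deb-1 was the 1 member called, at -0.24 ± 0.05 (adjusted p = 0.00318).

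**Figure D3:**
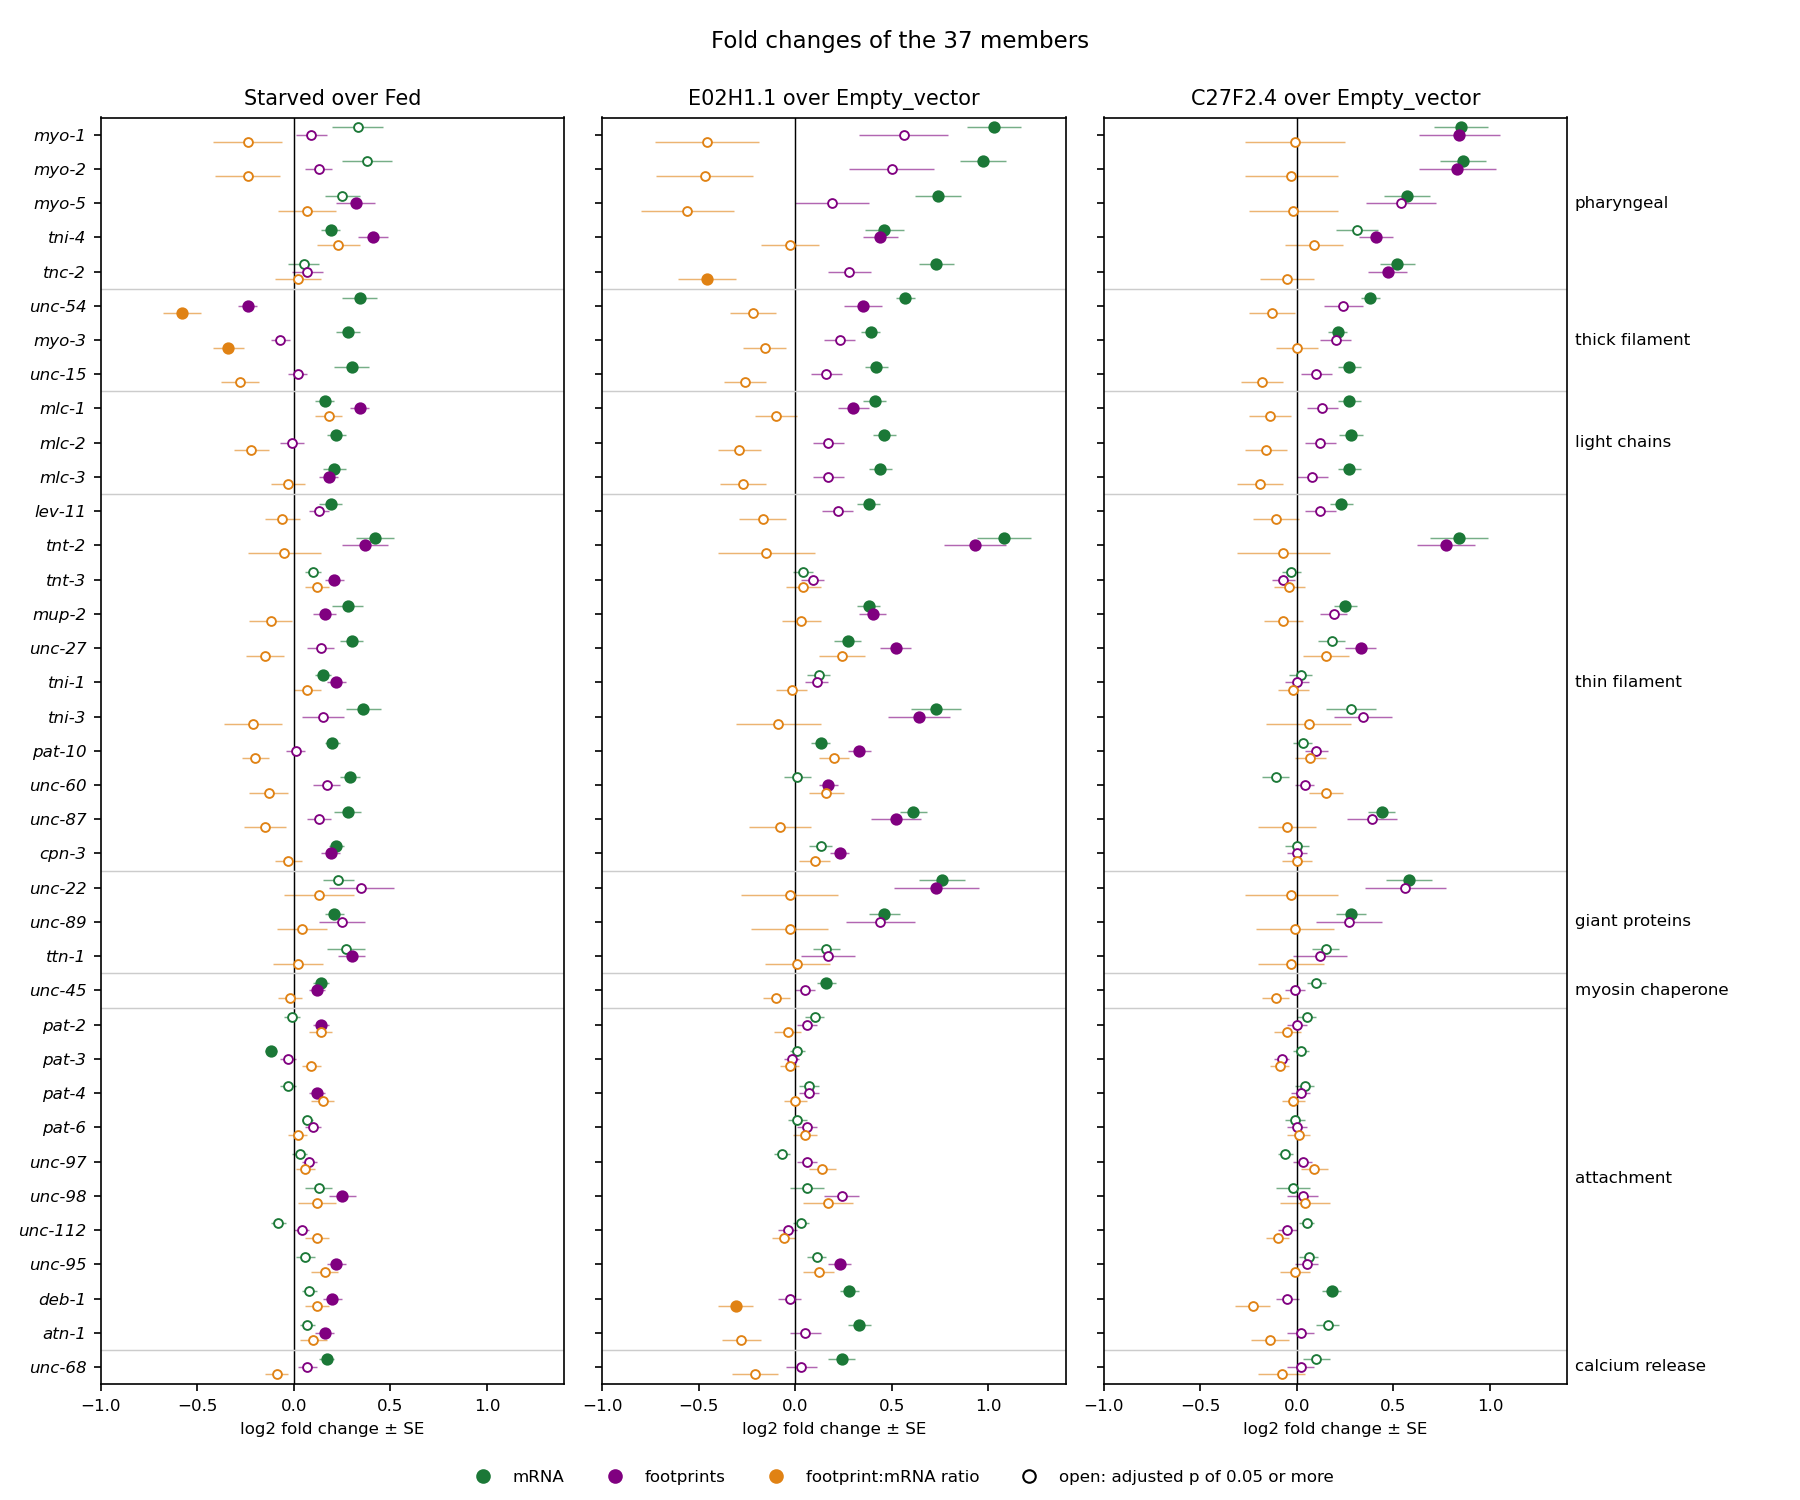
Log2 fold change of each of the 37 genes in mRNA, footprints and translational efficiency for Starved over Fed, E02H1.1 over Empty_vector and C27F2.4 over Empty_vector, with filled points where the edgeR adjusted p is under 0.05 and bars of 1 SE. Pharyngeal mRNA points reach 1.03 under E02H1.1 and 0.86 under C27F2.4, and the unc-54 ratio lies at -0.58 in the starvation comparison.

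The direct test of the 2 knockdowns called few members. Of the 37, 34 had a log2 difference above 0 in mRNA and 33 in footprints. Of all genes tested, 7012 of 13637 and 5395 of 10736 did. Before adjustment, 15 members in mRNA and 9 in footprints had an edgeR p under 0.05, all higher in E02H1.1 worms. The share of all genes under that unadjusted p is not given here, so these counts do not speak of muscle genes alone. In mRNA 2 members were higher in E02H1.1 than in C27F2.4 worms and 0 lower, against 1.63% of all genes called higher and 1.64% lower. With scaling by library totals 186 genes were called higher and 292 lower in place of 222 and 223. The mRNA of unc-54 averaged 762 ± 24.1 CPM in E02H1.1 worms and 667 ± 15.7 CPM in C27F2.4 worms, without overlap (SD, n = 4 each; log2 difference 0.19 ± 0.05, adjusted p = 0.0308). That of tni-3 averaged 19.6 ± 1.64 CPM in E02H1.1 worms and 14.3 ± 2.71 CPM in C27F2.4 worms (log2 difference 0.45 ± 0.13, adjusted p = 0.0479).

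In footprints the body wall troponin C gene pat-10 and cpn-3 were higher in E02H1.1 than in C27F2.4 worms, by 0.24 ± 0.06 and 0.23 ± 0.05 (adjusted p = 0.0358 and 0.0203), so 2 members were higher and 0 lower, against 0.615% of all genes called higher and 0.633% lower. None of these 4 calls held on leaving out each library in turn. Without C27F2.4 A, 13 members were higher in mRNA and 9 in footprints, without Empty_vector C 7 and 2, and without E02H1.1 A none in either assay. The shares of all genes called in these fits are not given here. No member was called in translational efficiency by edgeR or DESeq2, against 0.00933% of all genes called higher and 0.0373% lower by edgeR. Before adjustment 2 members had an edgeR p under 0.05, for which the share of all genes is not given here. With cultures as a term, 129 of 10714 genes were called higher and 131 lower. In that fit myo-5, myo-1 and tnc-2 were lower, at -0.54 ± 0.11, -0.44 ± 0.10 and -0.42 ± 0.11 (adjusted p = 0.0056, 0.0166 and 0.0213).

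Body wall sarcomere genes were unc-54, myo-3, unc-15, mup-2, unc-27, tni-1, tni-3, pat-10, unc-22, unc-89 and unc-87. The balance of pharyngeal and body wall genes was taken as the difference of the mean log2 CPM of the 5 pharyngeal genes and of these 11 body wall sarcomere genes in each library. In mRNA it averaged -1.39 ± 0.11 in E02H1.1 worms, -1.38 ± 0.08 in C27F2.4 worms and -1.73 ± 0.07 in Empty_vector worms (SD, n = 4 each). All 8 knockdown libraries lay above all Empty_vector libraries, whose highest value was -1.67. In footprints it averaged -2.48 ± 0.12 in E02H1.1 worms, -2.09 ± 0.12 in C27F2.4 worms and -2.45 ± 0.06 in Empty_vector worms, so the C27F2.4 libraries lay above and the E02H1.1 libraries overlapped the Empty_vector libraries.

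Taken from the fits, the median log2 fold change of pharyngeal genes less that of body wall genes was 0.33 in mRNA and 0.03 in footprints for E02H1.1, and 0.29 in mRNA and 0.30 in footprints for C27F2.4. Leaving out each library in turn kept these 4 differences at 0.28 to 0.41, 0.02 to 0.06, 0.25 to 0.35 and 0.26 to 0.36. The small E02H1.1 footprint difference depended on the genes chosen, and was 0.21 against unc-54, myo-3 and unc-15 alone. In the starvation experiment the balance averaged -1.26 ± 0.09 in Starved worms and -1.23 ± 0.06 in Fed worms in mRNA, and -1.92 ± 0.09 in Starved worms and -2.02 ± 0.06 in Fed worms in footprints (SD, n = 6 each), with overlapping libraries. These differences describe the lists and were not tested.

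**Figure D4:**
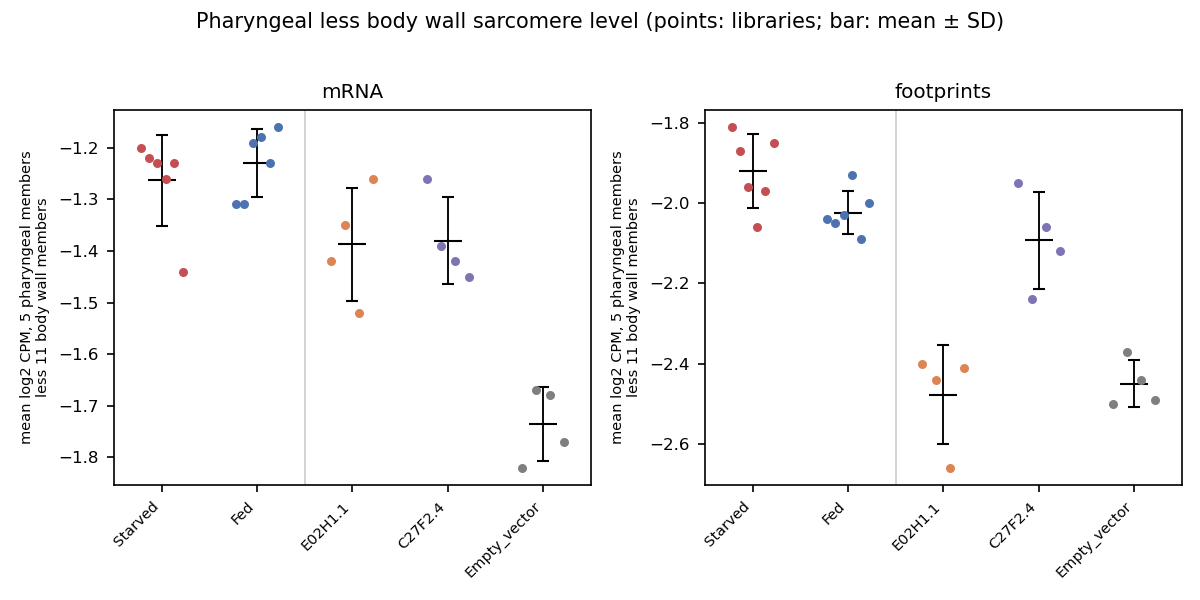
Mean log2 CPM of the 5 pharyngeal genes less that of the 11 body wall sarcomere genes in each library, for mRNA and footprints, with a point per library and bars for the group mean ± SD. In mRNA both knockdown groups (means -1.39 and -1.38) lie above Empty_vector (-1.73), and in footprints E02H1.1 (-2.48) lies beside Empty_vector (-2.45).

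A second list of 60 muscle genes outside the 38, of which 58 were tested, was read against the same background. In Starved worms 15 rose and 4 fell in mRNA (median 0.06), against 11.8% of all genes called higher and 10.2% lower. In footprints 13 rose and 3 fell, against 13.9% and 14.7% of all genes. The largest mRNA rises were in sgcb-1, a sarcoglycan, csq-1, the calsequestrin that buffers calcium in the sarcoplasmic reticulum, and unc-93, a potassium channel regulator (log2 differences 0.37 ± 0.09, 0.35 ± 0.05 and 0.31 ± 0.10, adjusted p = 0.00254, 3.1e-06 and 0.0205). The largest falls were in unc-120, a muscle transcription factor, and the attachment-site genes pix-1 and git-1 (-0.24 ± 0.04, -0.21 ± 0.04 and -0.18 ± 0.04, adjusted p = 0.000283, 0.000106 and 0.00331).

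In Starved footprints the pharyngeal troponin T gene tnt-4, the syntrophin gene stn-1 and ketn-1, a large thin filament protein, rose most (0.49 ± 0.11, 0.37 ± 0.09 and 0.33 ± 0.06, adjusted p = 0.00362, 0.00237 and 5.04e-05), while the calcium pump gene sca-1, the transcription factor gene hnd-1 and the actin gene act-2 fell. In translational efficiency the basement membrane gene nid-1, the small heat shock gene hsp-12.1, the calcium channel gene egl-19 and pix-1 rose (0.25 ± 0.07, 0.23 ± 0.06, 0.23 ± 0.07 and 0.20 ± 0.06, adjusted p = 0.0316, 0.02, 0.0411 and 0.0456), and sca-1 fell (-0.19 ± 0.06, adjusted p = 0.0335), against 2.54% of all genes called higher and 3.75% lower.

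In E02H1.1 worms 33 of the 58 rose and 2 fell in mRNA (median 0.19), and in C27F2.4 worms 19 rose and 0 fell (median 0.08), with sup-10, a partner of unc-93, and unc-93 leading both. The shares of all genes called higher and lower were 19.9% and 19.6% in E02H1.1 worms, and 8.11% and 5.56% in C27F2.4 worms. The 2 mRNAs that fell in E02H1.1 worms were hnd-1 and act-2 (-0.23 ± 0.08 and -0.22 ± 0.05, adjusted p = 0.0207 and 0.00161). The mRNA of sup-10 averaged 4.63 CPM in E02H1.1 worms, 3.63 CPM in C27F2.4 worms and 2.02 CPM in Empty_vector worms. Footprints rose for 9 and fell for 3 in E02H1.1 worms and rose for 1 in C27F2.4 worms, namely tnt-4, whose log2 difference was 0.70 ± 0.13 in E02H1.1 and 0.61 ± 0.13 in C27F2.4 worms (adjusted p = 0.00175 and 0.00827). Of all genes, 10.7% were called higher and 9.24% lower in E02H1.1 footprints and 4.96% higher in C27F2.4 footprints, a share that the 1 of 58 did not exceed. The 3 footprint falls in E02H1.1 worms were those of the dystrobrevin gene dyb-1, sca-1 and the pharyngeal transcription factor gene pha-4 (-0.24 ± 0.08, -0.22 ± 0.05 and -0.18 ± 0.05, adjusted p = 0.0427, 0.00265 and 0.00855). In E02H1.1 worms translational efficiency fell for 9 of the 58 and rose for 0, led by scpl-1, a phosphatase that binds unc-89, the calcium channel subunit ccb-1 and the dense body gene alp-1 (-0.52 ± 0.14, -0.47 ± 0.12 and -0.46 ± 0.10, adjusted p = 0.0168, 0.00936 and 0.00436), against 5.24% of all genes called lower.

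Markers of other tissues are given for the same comparisons. The pharyngeal gland and epithelium list held phat-1, phat-2, phat-4, phat-5, hlh-6, marg-1, abu-14, ajm-1, eps-8 and pqn-75. Of these 10 genes, 9 were tested in mRNA and 8 in footprints. In E02H1.1 worms, where 19.9% of all genes were called higher in mRNA and 19.6% lower, 9 of 10 neuron mRNAs rose and 1 fell (median 0.58), 7 of 9 pharyngeal gland and epithelium mRNAs rose (median 0.66), 3 of 10 intestine mRNAs rose and 2 fell, 3 of 9 hypodermis mRNAs rose and 1 fell (median 0.03), and 3 of 9 germline mRNAs fell. The neuron sum ran from 830 to 936 CPM in E02H1.1 worms and from 646 to 766 CPM in Empty_vector worms. The germline sum ran from 418 to 487 CPM in E02H1.1 worms and from 468 to 576 CPM in Empty_vector worms. In E02H1.1 footprints 4 of 8 pharyngeal gland and epithelium (median 0.55), 3 of 10 neuron, 4 of 7 hypodermis and 2 of 9 intestine genes rose. There 2 of 9 germline genes fell, against 10.7% of all genes called higher and 9.24% lower. The pharyngeal muscle median there was 0.44. In C27F2.4 worms 6 of 10 neuron, 5 of 9 pharyngeal gland and epithelium and 3 of 10 intestine mRNAs rose, against 8.11% of all genes. Of 9 hypodermis mRNAs 1 rose and 1 fell, and no germline mRNA was called. In C27F2.4 footprints 4 of 8 pharyngeal gland and epithelium (median 0.53), 1 of 10 neuron and 1 of 9 intestine genes rose, against 4.96% of all genes. No hypodermis or germline gene was called there, and the pharyngeal muscle median was 0.54. In Starved worms 4 of 10 intestine, 2 of 10 neuron and 2 of 9 pharyngeal gland and epithelium mRNAs rose, against 11.8% of all genes, and 1 of 9 hypodermis mRNAs rose and 3 fell (median 0.00). In Starved footprints 6 of 9 germline genes fell, against 14.7% of all genes. The part of such shifts in the muscle results was not tested.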

How the data were processed

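Counts per gene for mRNA and ribosome footprints were deposited by the authors as raw read counts, 19454 and 10741 genes long, and their deposited log2 translational efficiency table (10700 genes) was used only for a check: all 256800 values equalled log2((footprint count + 1)/(mRNA count + 1)) within 1e-09. Per the submitters' processing notes, cutadapt was among the tools used. The aligner, the genome build and the handling of strand and of reads that match several genes were not given in the sources used here, so overlapping and near-identical genes (mlc-1 and mlc-2, the actins) are uncertain. Gene names came from the reference name table for 19414 identifiers, and 40 stayed unnamed. No sequence was read.

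Counts were tested with edgeR 4.0.16 (R 4.3.3; quasi-likelihood test, robust, filterByExpr, TMM) on whole tables, with Benjamini-Hochberg adjustment over all genes and a threshold of 0.05. SE is the log2 fold change divided by the root of F. Translational efficiency is the interaction of assay and group in 1 model. Fed and Starved formed 1 fit and the 3 knockdown groups another, sharing Empty_vector. The members and lists were chosen with earlier results of these data known. Named with full values are unc-54, myo-3, myo-1, myo-2, unc-15 and up to 6 called members per direction, and from the other muscle list up to 3 per direction. Alternatives were DESeq2 1.42.0, other scalings, no filter, counts thinned to 3905609 per library, replicate and culture blocks, 2-group fits and each library left out. Knockdown libraries carry letters in the tables and numbers in the labels, so letters are used. The labels do not say whether replicates are separate cultures. The p-values therefore reflect only library-to-library spread, which may be technical. The mRNA and footprint libraries are described as matched, and deviations of same-named libraries correlated between -9.17e-05 and 0.503 (over 0.1 in 11 of 24 pairs).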

Additional observations from a re-analysis of the deposited data

Results flagged for a closer look

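Among 370 sets of values (a member in a group, in mRNA or footprints), 31 had a library far from the others of its group, where chance flags about 1 in 20. In 8 of the 31 the library was C27F2.4 A, always the highest: myo-1 with 116 CPM in mRNA and 115 CPM in footprints, myo-2 with 167 and 127 CPM, and footprints of unc-87 with 214 CPM, ttn-1 with 169 CPM, deb-1 with 400 CPM and unc-68 with 202 CPM. The neuron marker footprints of the same library summed to 391 CPM.

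Empty_vector C was lowest for tni-4 (60.1 CPM) and tni-1 (270 CPM) in mRNA and for lev-11 (518 CPM) and cpn-3 (440 CPM) in footprints. Empty_vector B was highest for myo-5 mRNA (87 CPM) and myo-2 footprints (57.1 CPM). Starved 5 was highest for footprints of unc-22 (130 CPM), unc-89 (208 CPM) and unc-97 (248 CPM), and Starved 1 for tnc-2 mRNA (44.4 CPM). E02H1.1 C was lowest for footprints of myo-1 (48.2 CPM) and unc-112 (461 CPM).

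The others were single genes. In mRNA, unc-15 stood at 490 CPM in Fed 3, tni-1 at 290 CPM in Fed 4, cpn-3 at 272 CPM in Fed 5, mlc-2 at 358 CPM in E02H1.1 B, unc-60 at 154 CPM in E02H1.1 A, and unc-98 at 23.6 CPM in Starved 4 and 24 CPM in C27F2.4 C. In footprints, pat-3 stood at 813 CPM in Fed 6, unc-98 at 40.7 CPM in Fed 2, atn-1 at 89.6 CPM in Fed 4 and unc-97 at 158 CPM in E02H1.1 D.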

How the results depend on the processing

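No called member changed sign under any setting. Of 1244 alternative values of the named members, 1165 kept their side of the threshold, 57 lost the call and 22 gained it. Leaving out each library in turn gave counts of called members of 16 to 25, 12 to 22 and 2 to 3 for Starved against Fed (mRNA, footprints, translational efficiency), 23 to 26, 7 to 20 and 0 to 5 for E02H1.1, 14 to 19, 3 to 9 and 0 to 1 for C27F2.4, and 0 to 13, 0 to 9 and 0 to 0 for E02H1.1 against C27F2.4. The pharyngeal less body wall differences then ran from -0.05 to 0 and from -0.04 to 0.02 for Starved against Fed, from 0.28 to 0.41 and 0.02 to 0.06 for E02H1.1, and from 0.25 to 0.35 and 0.26 to 0.36 for C27F2.4 (mRNA and footprints).

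Translational efficiency counts were 4 with library totals and 4 with DESeq2 for Starved against Fed, and for E02H1.1 1 with library totals, 1 with thinned counts and 5 with only the 2 groups fitted. E02H1.1 footprints gave 20 with only the 2 groups. Between the knockdowns, mRNA gave 1 with library totals, 1 with thinned counts and 5 with only the 2 groups. Same-numbered libraries of different groups did not meet the bar for pairing, a correlation over 0.1 in every pair: 0 of 12 starvation pairs and 7 of 24 knockdown pairs passed it (-0.178 to 0.327 in all). The 7 were pairs of letter A or C, and letter C passed in footprints in all 3 knockdown comparisons (0.182, 0.327 and 0.216). In the starvation experiment, with 6 libraries to match, a library correlated best with its own number in 1 of 24 cases. In the knockdown experiment, with 4 libraries to match, it did so with its own letter in 20 of 48 cases. The bar asks for every pair, so falling short of it does not show that libraries of a letter were unrelated. With the replicate block the counts were 19 for E02H1.1 footprints, against 13 without it, 11 for C27F2.4 footprints, against 6, and 11 and 4 in mRNA and footprints for E02H1.1 against C27F2.4. Shares of all genes called with the block are not given beside these counts. In translational efficiency the replicate block by culture gave 6 for Starved against Fed, 14 for E02H1.1, 1 for C27F2.4 and 3 between the knockdowns.

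The pharyngeal less body wall difference was 0.20 in Starved footprints and 0.21 in E02H1.1 footprints with unc-54, myo-3 and unc-15 as the body wall list. Without myo-5 it was 0.43 in mRNA for E02H1.1, and 0.41 in mRNA and 0.40 in footprints for C27F2.4. The cause of these shifts was not tested, apart from the change of list or of libraries itself. Footprint depth limits members of low level, and the shared Empty_vector libraries link both knockdown results.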
